A study of Homo sapiens with 4 samples.

Results

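Transcripts of the IRF and STAT transcription factors were followed in C4-2, an established cell line from human prostate cancer, with the question of how their levels differ between enzalutamide-resistant and control cells. The 8 members were chosen by gene symbol (IRF1, IRF2, IRF3, IRF5, IRF7, IRF9, STAT2 and STAT3), and all 8 were found among the 60483 gene rows of the count tables. There were 4 libraries, 2 labelled C4-2-CON (phenotype control) and 2 labelled C4-2-ENZ (phenotype enzalutamide-resistant), all of C4-2 cells at passage 20 to 30. Cells were grown with or without enzalutamide, an antagonist of the androgen receptor, for 1 month, so drug exposure and resistance cannot be told apart here. The labels describe no vehicle for the controls, and mention FGF-2 in the growth medium without saying for which cells. C4-2 is a single line, and the labels do not describe the 2 libraries of a group as independent cultures. The p-values therefore reflect the spread of these libraries, which may be technical.

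Interferon regulatory factors (IRFs) and signal transducers and activators of transcription (STATs) carry signals from pathogen sensors and cytokine receptors to the nucleus. IRF3 and IRF7 are phosphorylated downstream of nucleic acid sensors and switch on interferon genes. Interferons then act through Janus kinases on STAT proteins: STAT2 and IRF9 are parts of the complex ISGF3, which binds the interferon-stimulated response element (ISRE), while STAT dimers bind the gamma-activated site (GAS). IRF1 is itself a target of STAT dimers and activates antigen presentation genes, and IRF2 binds the same sites and is known as its antagonist. STAT3 is the main STAT of the IL-6 family of cytokines, which signal through the shared receptor chain gp130.

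Because IRF1 and IRF9 are known both as members of this circuit and as its targets, the promoters of the members were searched for the sites that the members bind. The RefSeq table (GRCh38.p14) held windows of 250 bases before to 50 bases after a start site for 5 of the 8 members, 8 windows in all, of which 4 belonged to IRF5. On both strands, the GAS letters TTCNNNGAA occurred in the windows of IRF1 and IRF9, 1 match each, and in none of the windows of IRF5, STAT2 and STAT3. The ISRE letters, GAAA followed by NN and a further GAAA, were in none of the 8 windows. Of all 35116 windows of this length, 7.66% held the GAS letters and 3.57% the ISRE letters. The IRF1 window lies at chr5:132490724-132491023 on the minus strand and the IRF9 window at chr14:24161015-24161314 on the plus strand. They are shown because the same kind of match stands in the member that rose most (IRF1) and in the only member that was not called (IRF9). The capitals mark the GAS letters.
IRF1: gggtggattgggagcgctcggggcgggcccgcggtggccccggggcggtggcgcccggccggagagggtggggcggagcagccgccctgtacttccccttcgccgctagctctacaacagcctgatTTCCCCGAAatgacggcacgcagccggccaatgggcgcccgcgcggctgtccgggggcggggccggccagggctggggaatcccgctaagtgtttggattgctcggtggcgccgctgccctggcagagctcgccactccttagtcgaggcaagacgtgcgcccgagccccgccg
IRF9: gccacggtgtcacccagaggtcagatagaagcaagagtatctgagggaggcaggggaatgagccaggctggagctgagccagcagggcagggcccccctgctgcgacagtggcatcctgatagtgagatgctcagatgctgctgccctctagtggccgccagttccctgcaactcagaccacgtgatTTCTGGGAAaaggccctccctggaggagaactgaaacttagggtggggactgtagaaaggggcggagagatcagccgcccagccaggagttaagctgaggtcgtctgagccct
The match starts 124 bases before the start site in IRF1 and 63 bases before it in IRF9. A match is a description of letters and not evidence of binding.

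Expression is given as CPM, counts-per-million of the library after TMM scaling, and differences as log2 fold changes of resistant against control cells from edgeR's quasi-likelihood test, with p-values adjusted (Benjamini-Hochberg) over all 20325 genes tested and a gene called below 0.05. Gene counts per library ran from 25589724 to 45033885, and 1 count was worth between 0.0207 and 0.0419 CPM. Rows that are not genes held 74.4% and 71.08% of the records of the control libraries and 55.41% and 56.87% of those of the resistant libraries. Calls were common: 33.0% of all genes tested were called higher and 31.7% lower. Protein-coding genes leaned to rises, with 42.3% called higher, 4378 of 13942 lower and a median log2 fold change of 0.09. Since libraries of the groups also differed in how counts depended on transcript length and base composition, each member's value with an offset for exonic length and GC content is given beside its main value. With total count scaling the median of all genes shifted by 0.188 on the log2 scale, and the split of calls went from 6705 higher and 6443 lower to 8615 higher and 4761 lower. Prostate luminal markers were present in every library, with a summed level of 4908 to 5052 CPM in control and 7154 to 7197 CPM in resistant cells.

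Of the 8 members, 7 were called higher in resistant cells and the other, IRF9, was not called. Among all genes tested 64.7% were called in either direction, and the 7 members stand against 33.0% called higher among all genes and 42.3% among protein-coding genes. With the length and GC offset 6 of the 8 members were called higher and 1 lower, against 29.0% higher of all genes. The 2 groups did not overlap in CPM for any of the 8, which was also true of 81.3% of all genes tested. Rises were mostly below 2-fold: IRF1 alone exceeded it, STAT3 came next at 1.89-fold, and the other 5 rose between 1.25-fold and 1.48-fold.

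**Figure D1:**
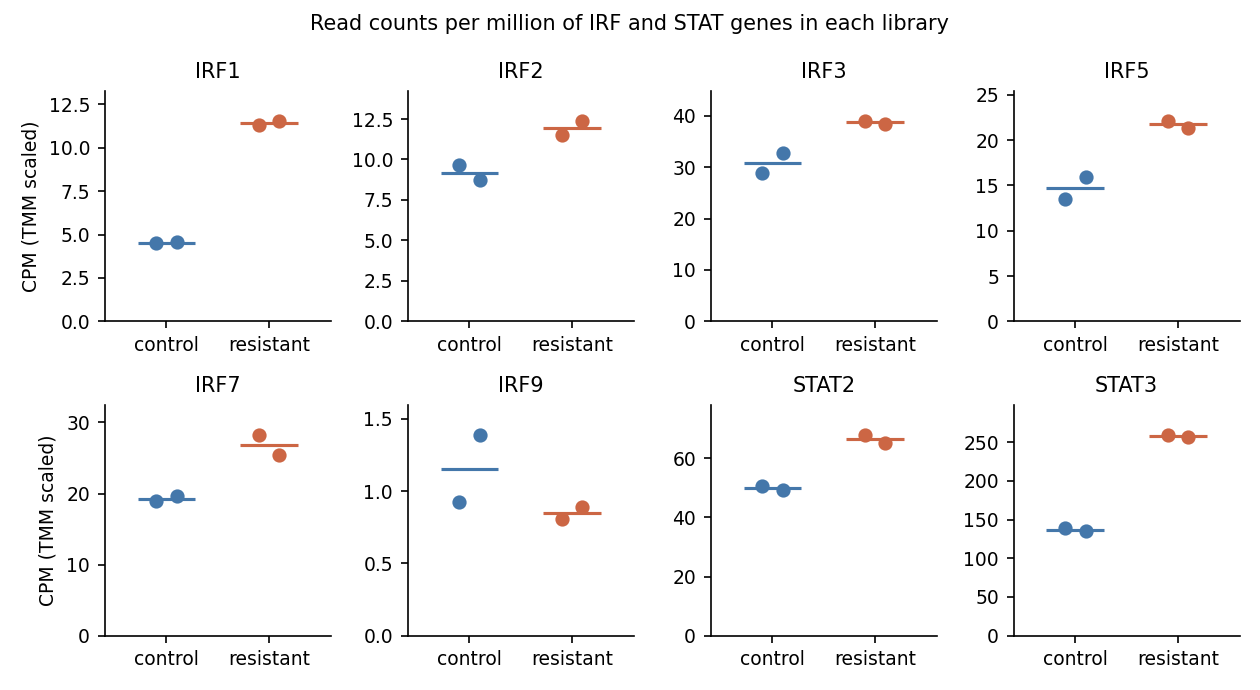
Level of each of the 8 genes in every library, in TMM-scaled CPM on linear axes that start at 0, with a separate scale for each gene. Points are libraries and bars are the mean of 2 libraries. Both resistant libraries lie above both control libraries in every panel but that of IRF9, where they lie below them and the control libraries differ most, at 0.9229 and 1.39 CPM.

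Among the factors activated by pathogen sensors, IRF3 was at 28.9 and 32.82 CPM in control and 39.03 and 38.43 CPM in resistant libraries. The gap between the 2 control libraries, 1 of which was closer to the resistant level, was larger than that between the resistant ones. IRF3 rose 1.25-fold (log2 fold change 0.33, SE 0.0634, edgeR adjusted p = 0.000784), but with the length and GC offset its value was 0.08 (95% interval -0.03 to 0.18, edgeR adjusted p = 0.176) and the call ended. IRF3 lies on chromosome 19 at 49659569 to 49665875 (GENCODE 29, GRCh38), and 19.3% of its exonic bases overlap BCL2L12 on the other strand. The strand setting of the counting is not known here, so reads of that stretch cannot be assigned with certainty.

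IRF7, the amplifier of interferon production, was at 18.92 and 19.6 CPM in control and 28.25 and 25.43 CPM in resistant libraries. Its resistant libraries differed more from each other than its control libraries, and both were above them. It rose 1.39-fold (log2 fold change 0.48, SE 0.069, edgeR adjusted p = 7.45e-05), or 1.12-fold with the offset (log2 fold change 0.17, edgeR adjusted p = 0.0254). IRF7 is on chromosome 11 at 612553 to 615999, and its longest transcript, with 66.8% GC, had the highest GC content of the 8.

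IRF5, a factor downstream of Toll-like receptors that is best known from leukocytes, was at 13.47 and 15.93 CPM in control and 22.15 and 21.38 CPM in resistant libraries. It rose 1.48-fold (log2 fold change 0.56, SE 0.077, edgeR adjusted p = 5.05e-05). Its control libraries differed more than its resistant ones, without overlap of the groups. With the offset the log2 fold change was 0.30 (edgeR adjusted p = 0.000821). IRF5 is on chromosome 7 at 128937612 to 128950035, where no other gene model overlaps it. Of 18 leukocyte markers, CD3D, CD3E, CD2 and FCGR3A had no count in any library, and the pan-leukocyte gene PTPRC had between 2 and 4 counts per library. Of the 6 markers that passed the count filter 2 rose, ITGAM and CD8A, and 1 fell, CD4. The shares over all genes tested, 33.0% called higher and 31.7% lower, were no smaller. CD8A was at 1.72 and 2.174 CPM in control and 2.779 and 2.774 CPM in resistant libraries (edgeR adjusted p = 0.0213). With the offset CD8A was not called (edgeR adjusted p = 0.0791). CD4 had 12 and 9 counts in control against 5 and 2 in resistant libraries (log2 fold change -2.32, edgeR adjusted p = 0.00305). The summed level of all 18 was 5.831 to 6.094 CPM in control and 8.088 to 8.468 CPM in resistant libraries, where the integrin gene ITGAM was the highest of them at 3.38 CPM in 1 library. ITGAM had 9 and 7 counts in control and 163 and 126 in resistant libraries (log2 fold change 3.37, edgeR adjusted p = 2.53e-07). ITGAM and CD4 had counts below 10 in the group where they were lower, so they passed the filter through the other group. Their calls are therefore no measure of the markers as a set. The part of these markers in the values of IRF5 was not tested. In bulk RNA, a change in the number of cells that express a gene and a change in RNA per cell cannot be told apart.

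IRF1 showed the largest rise of the 8. It was at 4.489 and 4.597 CPM in control and 11.3 and 11.56 CPM in resistant libraries. Libraries of a group lay close together, far from those of the other group. The rise was 2.51-fold (log2 fold change 1.33, SE 0.0885, edgeR adjusted p = 9.21e-08), above that of 95.5% of all genes tested. With the offset it was 1.98-fold (log2 fold change 0.99, edgeR adjusted p = 9.61e-08). IRF1 is on chromosome 5 at 132481609 to 132490798, and 22% of its exonic bases lie opposite C5orf56. That antisense gene had 69 and 73 counts in control and 243 and 190 counts in resistant libraries, so it too was higher in both resistant libraries. Without a known strand setting reads of the pair cannot be told apart.

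IRF2, the antagonist, moved less. It was at 9.648 and 8.731 CPM in control and 11.53 and 12.4 CPM in resistant libraries, a rise of 1.3-fold (log2 fold change 0.38, SE 0.0815, edgeR adjusted p = 0.00144). IRF2 was the only called member whose value grew with the offset. Per kilobase of exon, the ratio of IRF1 to IRF2 was 0.186 and 0.21 in the control libraries and 0.392 and 0.372 in the resistant libraries. This ratio is taken within a library, so a single scaling factor per library does not change it, but a dependence on length and GC does. With the offset the log2 fold changes of IRF1 and IRF2 lay closer together, at 0.99 and 0.46 rather than 1.33 and 0.38. In every library there was less IRF1 than IRF2 per length. The length, all annotated exons of a gene joined, was 7799 bases for IRF1 and 3116 for IRF2. In CPM, IRF1 was at 11.3 and 11.56 in the resistant libraries, close to IRF2, so there the order rests largely on these lengths. Lengths of the transcripts present in these cells were not measured. IRF2 is on chromosome 4 at 184387713 to 184474580 and shares no exonic base with another gene model.

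Of the ISGF3 components among the members, STAT2 was called higher and IRF9 was not called. STAT2 was at 50.76 and 49.25 CPM in control and 67.94 and 65.23 CPM in resistant libraries without overlap, and rose 1.33-fold (log2 fold change 0.41, SE 0.0436, edgeR adjusted p = 5.17e-06). With the offset the log2 fold change of STAT2 was 0.17 (edgeR adjusted p = 0.00101). STAT2 is on chromosome 12 at 56341597 to 56360155 and shares no exonic base with another gene model. IRF9, the DNA-binding subunit that gives ISGF3 its specificity for the ISRE, had 22 and 39 counts in control and 39 and 37 counts in resistant libraries, or 0.9229 and 1.39 against 0.8088 and 0.8926 CPM.

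IRF9 was not called, with a log2 fold change of -0.47 (95% interval -1.02 to 0.08, edgeR adjusted p = 0.123). The higher value of control replicate 2 set much of this size: without it the log2 fold change was -0.11, and without control replicate 1 it was -0.71. Each of these 2 fits rests on 1 control library. With the length and GC offset it was called lower (log2 fold change -0.62, edgeR adjusted p = 0.0417). The low level of IRF9 has a limit in the annotation: on chromosome 14 at 24161053 to 24166565, 48.4% of its exonic bases also belong to AL136295.5, a protein-coding gene model on the same strand. A counter that discards reads fitting more than 1 gene would lose reads there, and that model received 20, 26, 35 and 27 counts in control replicates 1 and 2 and resistant replicates 1 and 2. Reads that HTSeq set aside as ambiguous were 10.38% and 11.25% of gene and ambiguous reads in control and 8.067% and 8.046% in resistant libraries, and their part in the IRF9 values was not tested.

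STAT3 was the most abundant member. It was at 139.2 and 134.8 CPM in control and 259.6 and 257.1 CPM in resistant libraries, and rose 1.89-fold (log2 fold change 0.92, SE 0.039, edgeR adjusted p = 2.06e-09). With the offset the rise was 1.47-fold (log2 fold change 0.56, edgeR adjusted p = 4.93e-10). STAT3 lies on chromosome 17 at 42313324 to 42388568, next to STAT5A and STAT5B, and no other gene model overlaps its span. Per length, the ratio of STAT3 to STAT2 was 1.9 in both control libraries and 2.65 and 2.73 in the resistant libraries.

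**Figure D2:**
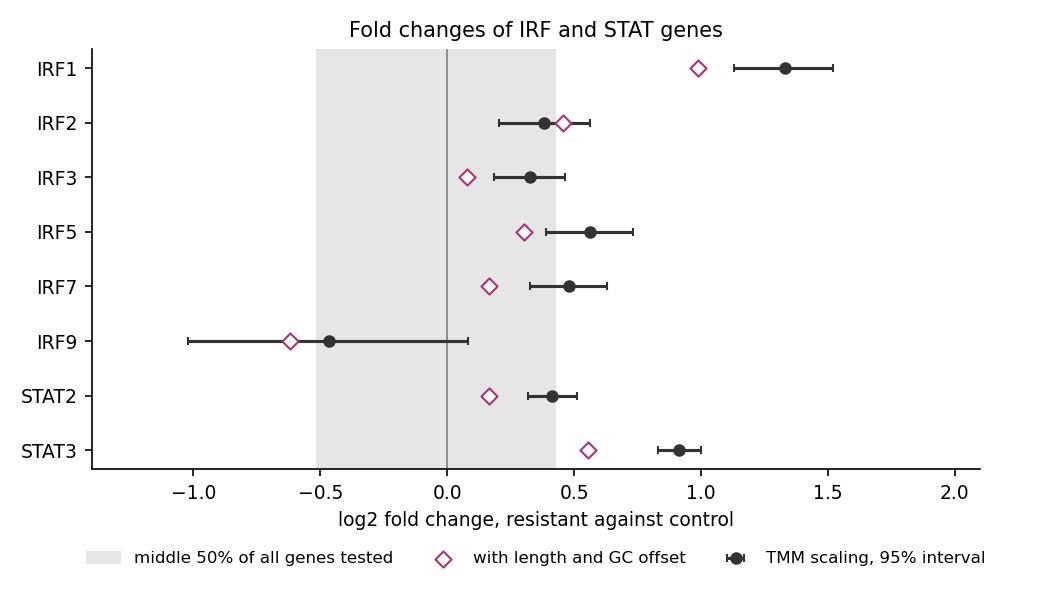
Log2 fold change of resistant against control cells for the 8 members. Filled circles with bars are TMM-scaled values with their 95% intervals, open diamonds are values with the length and GC offset, and the grey band holds the middle 50% of all genes tested (-0.51 to 0.43). The band is that of the TMM-scaled fit, and none is drawn for the fit with the offset. IRF1 and STAT3 lie outside the band under both. The diamonds of IRF3, IRF5, IRF7 and STAT2 lie inside it, as do the circles of IRF2, IRF3, IRF9 and STAT2.

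Levels between genes were compared per kilobase of exon, with all annotated exons of a gene joined. The order therefore depends on the annotation, since a transcript in these cells may be shorter. In control cells the order was STAT3 at 15.55 ± 0.357 (SD, n = 2), STAT2 at 8.185 ± 0.175, IRF3 at 8.134 ± 0.73, IRF7 at 7.329 ± 0.183, IRF5 at 3.359 ± 0.398, IRF2 at 2.949 ± 0.208, IRF1 at 0.5825 ± 0.00984 and IRF9 at 0.3048 ± 0.087 CPM per kilobase. STAT2 and IRF3 differed by less than the spread of IRF3, and the libraries of IRF5 and IRF2 overlapped. In resistant cells the order was the same except that IRF3 and IRF7 had the same mean of 10.21, with SDs of 0.112 and 0.758. STAT3 reached 29.32 ± 0.198 (SD, n = 2) and IRF1 1.465 ± 0.023 CPM per kilobase.

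**Figure D3:**
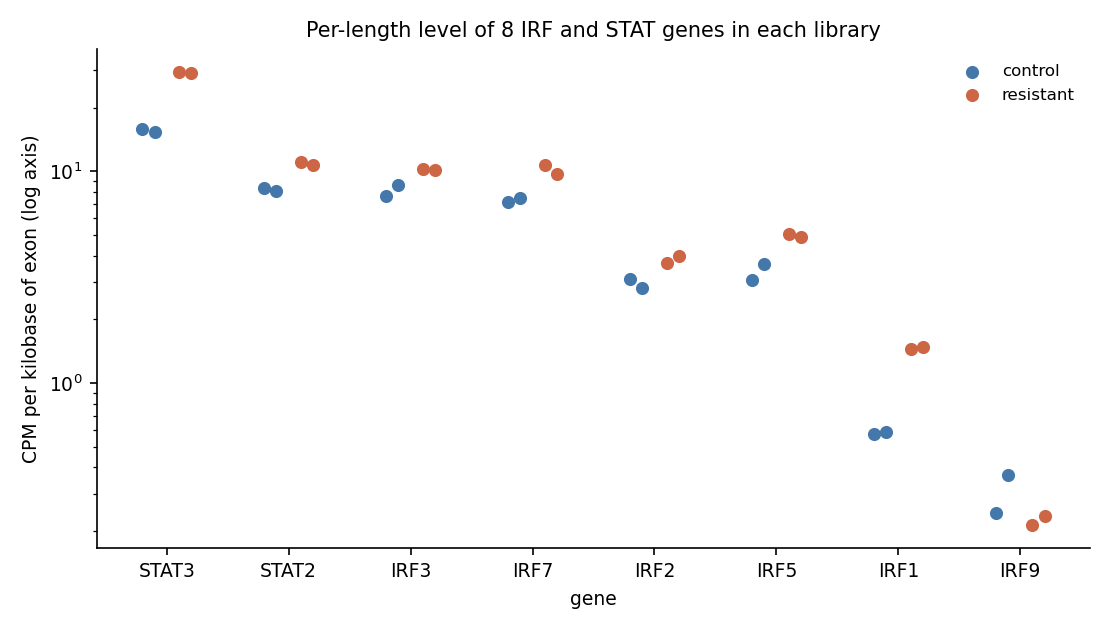
CPM per kilobase of exon of the 8 genes in each library, on a log axis, with genes in descending order of control replicate 1 and each point a library. STAT3 is highest in all 4 libraries, IRF9 is lowest, and STAT2, IRF3 and IRF7 lie close together.

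Of further genes of these families, STAT5A, which acts downstream of prolactin and growth hormone, rose from 4.782 and 4.312 CPM to 13.31 and 13.97 CPM (log2 fold change 1.59, or 1.23 with the offset). Its neighbour STAT5B rose by 0.25 on the log2 scale, but had a value of -0.03 with the offset (edgeR adjusted p = 0.597). STAT6, the STAT of IL-4, was at 1.175 and 1.283 CPM in control and 1.701 and 1.399 CPM in resistant libraries. It was not called (log2 fold change 0.34, edgeR adjusted p = 0.168), but was under total count scaling (edgeR adjusted p = 0.0416). With the offset the log2 fold change of STAT6 was -0.05 (edgeR adjusted p = 0.873). The leukocyte factors IRF4, IRF8 and STAT4 had at most 4 counts in any library and were not tested.

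Ligands that engage these factors were close to absent. Of 22 interferon and cytokine genes, 4 passed the count filter, of which 3 rose and 0 fell (median log2 fold change 0.68). The shares over all genes tested were 33.0% called higher and 31.7% lower. IFNA1, IFNG, IL6 and IL10 had no count in any library, and IFNB1 had 1 and 2 counts in control and 1 and 0 in resistant libraries. CLCF1 and LIF, both of the IL-6 family, rose from 0.346 to 0.8801 CPM and from 2.178 to 2.82 CPM (edgeR adjusted p = 0.00203 and 0.0498), and LIF was not called with the offset (adjusted p = 0.374). IL15 rose from 0.6983 to 1.174 CPM.

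Receptors were mixed. Of the 17 that were tested 10 rose and 3 fell, against 33.0% called higher and 31.7% lower among all genes tested. The median was 0.20 on the log2 scale, against -0.02 over all genes tested and 0.09 over protein-coding genes. Of protein-coding genes 42.3% were called higher. The signalling chain gp130, encoded by IL6ST, rose from 178.9 and 166.8 CPM to 334.6 and 335.5 CPM (log2 fold change 0.96, edgeR adjusted p = 2.65e-09), and its partner LIFR rose by 0.88 on the log2 scale. Both values were at least as large with the offset, at 1.01 and 0.89. The growth hormone receptor GHR fell by 1.01 on the log2 scale, and PRLR, the prolactin receptor, named after its values were seen, fell by 1.70. The chains of the interferon alpha and beta receptor went apart: IFNAR1 rose from 99.29 and 102 CPM to 114.1 and 114.5 CPM, and IFNAR2 fell from 14.56 and 13.29 CPM to 11.18 and 10.47 CPM (edgeR adjusted p = 0.00214 and 0.00133). Under total count scaling IFNAR2 was not called (log2 fold change -0.17, adjusted p = 0.0696).

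All 7 kinases listed were tested, and 6 rose while JAK3 fell (median log2 fold change 0.51), or 3 higher and 2 lower with the offset (median 0.14). Among all genes tested 33.0% were called higher and 31.7% lower, or 29.0% higher with the offset. JAK2 rose from 29.32 and 29.69 CPM to 57.55 and 56.33 CPM (log2 fold change 0.95, edgeR adjusted p = 9.81e-09), with 1.04 under the offset. PTK6, a kinase known to phosphorylate STAT3, rose by 1.32 on the log2 scale, and ABL1 by 0.73 (offset value 0.29). JAK1 rose from 8.516 and 9.693 CPM to 11.24 and 11.72 CPM, a call that ended with the offset (adjusted p = 0.142). TYK2 turned direction, from 0.36 on the log2 scale (edgeR adjusted p = 1.9e-05) to -0.13 with the offset (adjusted p = 0.00445).

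Of 17 sensors and adaptors upstream of IRF3 and IRF7, 10 rose and 5 fell (median log2 fold change 0.45), or 12 and 3 under total count scaling (median 0.63) and 9 and 6 with the offset (median 0.19). Over all genes tested 33.0% were called higher and 31.7% lower. Under total count scaling these were 42.4% higher and 4761 of 20325 lower, with a median of 0.17. With the offset these were 29.0% higher and 7039 of 20325 lower, so the falls among sensors were near the background. The RNA sensor RIGI rose from 8.809 and 7.591 CPM to 22.02 and 20.92 CPM (log2 fold change 1.40, edgeR adjusted p = 2.37e-08), or 1.57 with the offset. TRAF3 rose by 0.75 on the log2 scale (offset value 0.36). MAVS, the mitochondrial adaptor of RIGI, rose by 0.49, but had 0.04 and was not called with the offset (adjusted p = 0.323). TBK1, the kinase of IRF3, was at 74.82 CPM in control and 75.4 CPM in resistant cells and was not called. Like the other genes named in the rest of this paragraph, it was chosen after its values were seen. The DNA sensor CGAS had at most 8 counts in any library, and STING1 fell from 1.611 to 0.7678 CPM.

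Of 16 STAT inhibitors and phosphatases tested, 7 rose and 4 fell (median log2 fold change 0.12), close to the background of protein-coding genes, of which 42.3% were called higher and 4378 of 13942 lower. The split was 10 and 3 under total count scaling (median 0.31) and 6 and 6 with the offset (median 0.03). Under total count scaling 42.4% of all genes tested were called higher and 4761 of 20325 lower, with a median of 0.17. PTPN2, a phosphatase of STAT proteins including STAT3, fell from 56.93 and 62.51 CPM to 36.44 and 37.08 CPM (log2 fold change -0.70, edgeR adjusted p = 2.91e-07), and PTPN1, which acts on JAK2 and TYK2, rose by 0.57 on the log2 scale. SOCS4 fell by 0.55 on the log2 scale. Among feedback inhibitors induced by STATs, SOCS1 had 4, 5, 13 and 5 counts and was not tested, and SOCS3 was at 0.367 CPM in control and 0.5109 CPM in resistant cells (edgeR adjusted p = 0.261). Others of this kind, named after their values were seen, were more abundant. USP18 rose from 11.24 and 12.26 CPM to 13.17 and 14.38 CPM (edgeR adjusted p = 0.0242), CISH fell from 4.237 and 3.813 CPM to 1.908 and 1.858 CPM (adjusted p = 4.47e-05), and SOCS2, at 4.231 to 4.994 CPM in all libraries, was not called. Of 14 partners and cofactors of IRFs, 11 rose and BATF3 fell (median log2 fold change 0.67), or 7 and 3 with the offset (median 0.32). BATF3 was not called lower with DESeq2. The shares of all genes were 33.0% called higher and 31.7% lower, or 29.0% higher and 7039 of 20325 lower with the offset. IFI35, IRF2BPL and IRF2BP2 rose by log2 fold changes of 1.22, 0.75 and 0.51. IRF2BP2 is a corepressor that binds IRF2.

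Genes known as targets of the members were described in the same way. Among ISGF3 targets 22 of 29 rose and 2 fell, and 14 rose at least 2-fold. Their median was 0.82 on the log2 scale, or 0.69 with the offset. PARP14, IFI6 and IFIT2 rose by 1.78, 1.51 and 2.48. The targets that fell were IFITM1 (log2 fold change -1.02) and BST2 (-0.47), both antiviral membrane proteins named after their values were seen. Among IRF1 targets 21 of 26 rose, 15 of these at least 2-fold, and 4 fell (median 1.20, or 1.11 with the offset). GBP3, an interferon-induced GTPase, rose from 2.139 and 2.281 CPM to 16.32 and 15.87 CPM (log2 fold change 2.86, edgeR adjusted p = 3.31e-10), APOL6 rose by 2.45, and HLA-B, whose near copies may take some of its reads, rose by 1.79. The IRF1 targets that fell, also named after their values were seen, were VCAM1 (-3.37), IL18BP (-0.51), WARS1 (-0.45) and B2M (-0.44), the light chain of HLA class I. For comparison, 33.0% of all genes tested were called higher and 31.7% lower, and 7.58% were called at least 2-fold higher.

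Targets of STAT3 went both ways. Of the 22 that passed the filter 14 rose and 5 fell (median log2 fold change 0.55), or 11 and 6 with the offset (median 0.29). Among all genes tested 33.0% were called higher and 31.7% lower, or 29.0% higher with the offset. The AP-1 subunit FOS and the iron-binding secreted protein LCN2 rose by 4.69 and 3.40 on the log2 scale. BIRC5, the mitotic protein survivin, fell from 207.7 and 210.7 CPM to 69.48 and 71.05 CPM (log2 fold change -1.57, edgeR adjusted p = 5.03e-11). The others that fell, named after their values were seen, were MYC, VEGFA, HIF1A and LRG1. The lists share genes with each other: ICAM1 is in the lists of IRF1 and STAT3 targets. Of the STAT3 targets, IL6ST and OSMR are also listed as receptors, and SOCS3 is also listed as a STAT inhibitor.

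**Figure D4:**
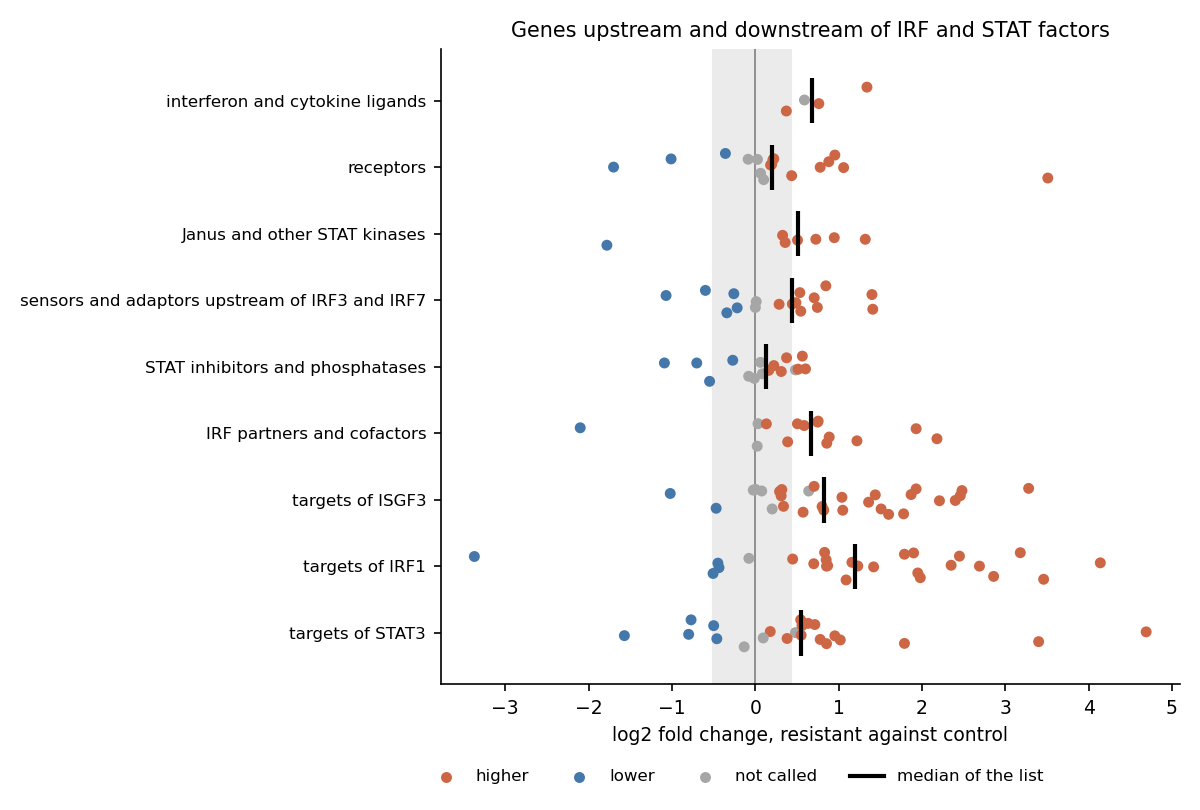
Log2 fold change of each tested gene in the lists around the IRF and STAT factors, coloured by whether it was called higher, lower or not called, with the list's median as a bar. The grey band holds the middle 50% of all genes tested. The medians of the targets of ISGF3 and IRF1 (0.82 and 1.20) lie to the right of the band, and those of receptors (0.20) and STAT inhibitors (0.12) lie inside it.

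Genes with the most similar pattern were sought as the smallest Euclidean distance of centred log2 CPM over the 4 libraries, among protein-coding genes whose average log2 CPM reached 3. With 4 libraries in 2 groups this measure mostly matches the size of the group difference. IRF1 was closest to PTK6 (distance 0.0153) and CSMD1 (0.0166), STAT2 to SRF (0.00724) and FAM120AOS (0.00885), and STAT3 to TRAM2 (0.0159). For IRF2 the nearest were SLTM and CCDC6, for IRF3 BRMS1 and SLC52A2, for IRF5 DGAT2 and ZNF324B, and for IRF7 ZSWIM3 and PACS2, at distances of 0.0107 to 0.0236. For IRF9 the closest were ZNF771 and FUT1, both at 0.202. IRF1 and IRF9 themselves lie below the level asked of candidates, so genes at their level were not searched. The larger distances of IRF9 are therefore not a trait of this gene that the search can show.

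**Figure D5:**
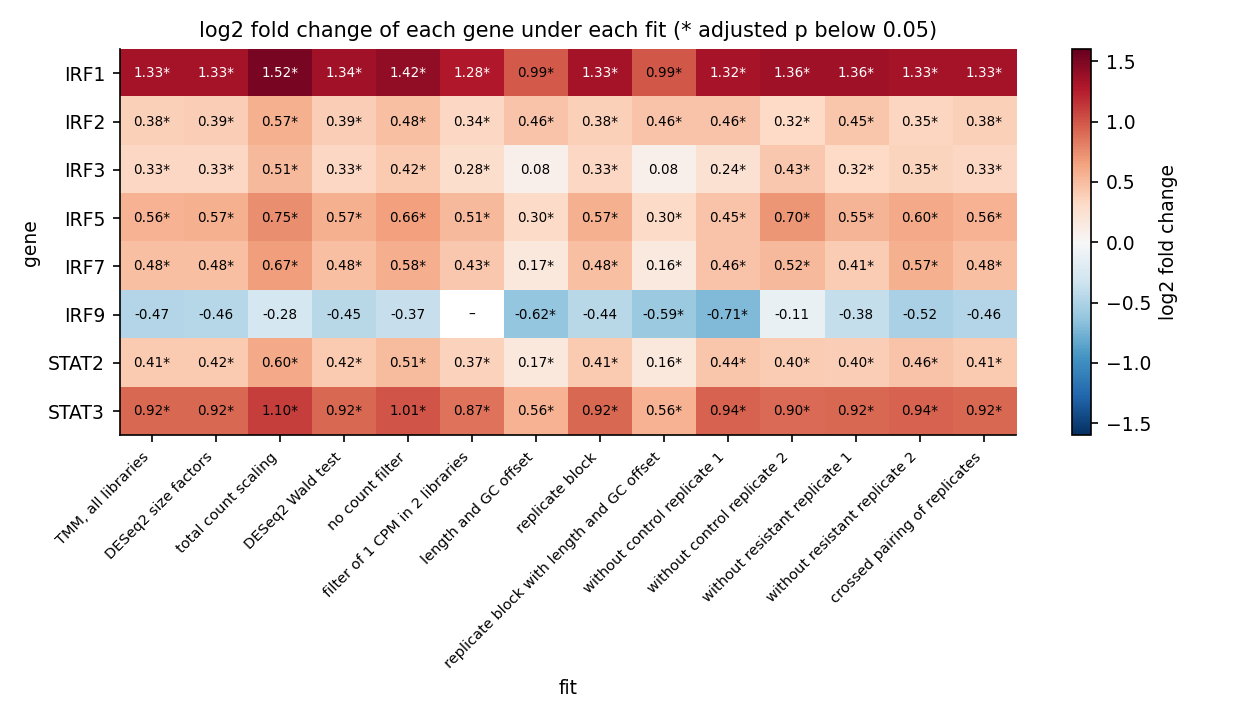
Log2 fold change of the 8 genes (vertical axis) with TMM scaling of all libraries and in 13 alternative fits (horizontal axis), by colour and printed value, with an asterisk for an adjusted p below 0.05 and a dash where the gene was not tested. The sign of each gene is the same in every fit shown, the offset columns hold the lowest values of the called genes except IRF2, and IRF9 is called in 3 of the 12 alternatives that tested it.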

How the data were processed

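RNA of 4 C4-2 libraries was analysed. Each table deposited by the authors holds raw read counts by gene. The submitters' processing notes name STAR 2.5.2b, HTSeq and the build GRCh38 (hg38). Not given in the sources used here are the annotation release and HTSeq's version, mode and strand option.

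Identifiers were matched without version to GENCODE 29, which gave 56753 of 60483 rows a position. Rows that are not genes were left out of library sizes and tests. Counts were filtered with filterByExpr (minimum count 10), scaled with TMM and tested with edgeR 4.0.16 in R 4.3.3, with group as the only term and 2 residual degrees of freedom. The biological coefficient of variation was 4.02%. The standard error is the log2 fold change divided by the square root of F, and intervals are 95%. The length and GC offset is a smooth (mgcv 1.9.3) of each library's log2 ratio to the mean library in exonic length and GC of the longest transcript. The test was checked on data simulated with a common dispersion for all genes. The offset was checked on a planted effect of length only, so its GC part was not checked. Within pairs, counts differed by more than sampling noise (chi-square per degree of freedom 5.67 and 2.38).

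Lists were described by counts and medians, with no set test. Genes named by rule were all members, the other genes of both families, the 2 nearest genes of each member and, from each list, the 3 called genes with the smallest adjusted p whose groups do not overlap, plus JAK1, JAK2, TYK2, IL6ST, IFNAR1, IFNAR2, SOCS1 and SOCS3. Some genes that this rule names are not reported here. Other genes with values were chosen after their values were seen. Members and lists were chosen with earlier results of these data known. Fibroblast and endothelial markers summed to at most 11.4 and 5.118 CPM in any library. Alternatives were DESeq2 1.42.0 and its size factors, total count scaling, other filters, the offset, a replicate block and leaving out each library.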

Additional observations from a re-analysis of the deposited data

How the results depend on the processing

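Every member kept its direction in each alternative fit that tested it. IRF1, IRF2, IRF5, IRF7, STAT2 and STAT3 also kept their call, though the length and GC offset moved the log2 fold changes of IRF5, IRF7, STAT2 and STAT3 from 0.56, 0.48, 0.41 and 0.92 to 0.30, 0.17, 0.17 and 0.56. IRF3 lost its call with the offset (0.0791) and with the replicate block and the offset (0.0816). IRF9 gained one with the offset (-0.62), with the replicate block and the offset (-0.59, adjusted p = 0.0451) and without control replicate 1. The last of these fits has only 1 control library, so its call says nothing about spread among controls. Leaving out 1 library at a time gave -0.71 to -0.11 for IRF9, which was not tested under the filter of 1 CPM. The cause of these differences was not tested.

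The replicate block alone gave 6647 genes called higher and 6444 lower and changed no member's call. Replicate deviations of the pairs correlated at -0.18 over 11907 genes, so libraries of the same number did not deviate alike. This value cannot tell whether they shared a culture or batch, which the labels do not say. A crossed pairing, chosen after seeing the data, gave 6988 higher and 6753 lower.

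Scaling per-length levels to a fixed sum over all genes gives most weight to the 7SK RNA, of 331 bases, which took 51.4% and 50.2% of the per-length sum in control and 41.1% and 41.6% in resistant libraries. On that scale the log2 ratios of resistant to control were 2.01 for IRF1, 1.06 for IRF2, 1.0 for IRF3, 1.24 for IRF5, 1.16 for IRF7, 1.09 for STAT2 and 1.59 for STAT3, and IRF9 turned to 0.23 from -0.44. Scaled to protein-coding genes alone, an alternative chosen after seeing the data, they were 1.63, 0.68, 0.62, 0.86, 0.78, 0.71 and 1.21, and IRF9 stayed negative at -0.14.

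No median of the 10 lists, other genes of both families included, changed sign in 130 refits, and 238 of 260 counts of called members stayed within 1.5 times. Ligands called higher were 1 with DESeq2 and with the 1 CPM filter, and 1 to 2 without a library. Kinases called higher were 3 with the offset, with or without the replicate block, and those called lower were 2 with it and 0 under the 1 CPM filter. Sensors called lower were 3 under total count scaling and without a count filter, and 3 to 6 without a library. IRF partners called higher were 7 with the offset, with or without the block. Those called lower were 0 with DESeq2 and the 1 CPM filter, 3 with the offset, 2 with the offset and the replicate block, and 0 to 2 without a library. Counting depth limits IRF9 most, at 22 to 39 counts per library.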
